A study of Homo sapiens with 6 samples.

Results

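The aldehyde dehydrogenase (ALDH) genes described here were chosen by symbol: ALDH1A1, ALDH1A3, ALDH1B1, ALDH2, ALDH3A1, ALDH3A2, ALDH3B1, ALDH7A1, ALDH9A1 and ALDH16A1, 10 of the 58735 gene rows in each library. None of the 10 symbols needed a choice between repeated rows. RNA-seq compared MUM2B cells, a human line that the labels give as melanoma, carrying an empty vector (EV, replicates 1 to 3) with the same line stably overexpressing LACTB (replicates 1 to 3). LACTB is a mitochondrial protein related to serine proteases, with a reported role in suppressing tumours. All 6 libraries came from serum-fed cultures with no drug treatment named in the labels, and the sources used here name neither the vectors' promoter nor whether each stable line was 1 clone or a pool. As the labels name no separate cultures for the 3 libraries of a group, the spread behind the p-values may be technical.

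ALDH enzymes oxidise aldehydes to carboxylic acids with NAD+ or NADP+ as the electron acceptor. Members differ in substrate and in place in the cell: the ALDH1A enzymes make retinoic acid from retinal in the cytosol, ALDH2 and ALDH1B1 clear acetaldehyde in mitochondria, and the ALDH3 enzymes handle fatty and lipid-derived aldehydes, several of them at membranes. High ALDH activity is a widely used mark of stem-like tumour cells, and in melanoma this activity has been ascribed mainly to ALDH1A1 and ALDH1A3.

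The LACTB transcript itself stood at 3.81, 3.39 and 4.71 FPKM (fragments per kilobase of exon, adjusted for depth) in the EV libraries and at 173.9, 169.3 and 161.5 FPKM in the LACTB libraries, as the labels say. Each library held 16978799 to 18395631 reads in genes. The share of reads from the mitochondrial genome was 3.61% in EV replicate 3, against 5.54% and 5.62% in the other EV libraries and 4.65% to 5.04% in the LACTB libraries. Of 17 melanocyte markers, 16 lay under 1 FPKM; OCA2, PAX3, TRPM1 and S100B were listed at 0, and the summed level of the list was 8.07 to 8.48 FPKM in EV and 7.38 to 7.69 FPKM in LACTB libraries. RAB27A, which many secretory cells also express, was the marker above 1 FPKM, so the defining markers of the labelled cell type were absent or low. All 10 haematopoietic markers lay under 1 FPKM (summed 0.275 to 0.492 FPKM in EV and 0.211 to 0.611 FPKM in LACTB libraries, with CD3E and CD3D at 0). Of 10 fibroblast markers, 9 lay under 1 FPKM, with DCN at 0, and their sum was 2.35 to 2.63 FPKM in EV and 1.05 to 1.2 FPKM in LACTB libraries. Most of that sum was FAP, named after its values were seen, with means of 1.90 FPKM in EV and 0.609 FPKM in LACTB cells, while PDGFRA was at 0.105 and 0.137 FPKM. The part of these cell types in the results was not tested. In bulk RNA, fewer cells that express a gene and less RNA per cell cannot be told apart.

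The sequences upstream of 3 members that represent the patterns found below are shown first: ALDH1B1, which fell, ALDH3A2, which rose by a small margin, and ALDH1A1, which was listed at 0. They are the RefSeq windows of 250 bases before the annotated start (GRCh38.p14), read 5′ to 3′ on the gene's strand, with bases inside annotated exons left out. Capitals mark GC boxes (GGGCGG on either strand) in ALDH1B1 and the CCAAT box in ALDH1A1; the ALDH3A2 window shown held neither. The windows of ALDH1A3 and ALDH9A1 lie inside annotated exons and are described without their letters.
ALDH1B1, chr9:38392452-38392663, + strand: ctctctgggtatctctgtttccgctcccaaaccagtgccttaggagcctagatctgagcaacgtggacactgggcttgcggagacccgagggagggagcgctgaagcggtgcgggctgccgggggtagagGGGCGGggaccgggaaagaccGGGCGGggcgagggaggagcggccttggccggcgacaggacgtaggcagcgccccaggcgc
ALDH3A2, chr17:19647886-19648135, + strand: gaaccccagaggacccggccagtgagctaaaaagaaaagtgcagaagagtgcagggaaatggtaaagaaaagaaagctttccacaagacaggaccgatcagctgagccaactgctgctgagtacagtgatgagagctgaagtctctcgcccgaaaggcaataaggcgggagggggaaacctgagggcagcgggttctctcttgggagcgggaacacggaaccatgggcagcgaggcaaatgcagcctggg
ALDH1A1, chr9:72953057-72953303, - strand: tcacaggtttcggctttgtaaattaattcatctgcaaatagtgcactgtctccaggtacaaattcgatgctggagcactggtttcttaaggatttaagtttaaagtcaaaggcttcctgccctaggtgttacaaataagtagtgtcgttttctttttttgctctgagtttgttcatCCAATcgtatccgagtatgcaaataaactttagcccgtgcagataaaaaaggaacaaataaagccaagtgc

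RefSeq windows were at hand for 7 of the 10 members, 9 windows in all. GC content differed widely between them: it was 82.4% before ALDH1A3, 70.4% before ALDH1B1, 67.2% before ALDH9A1 and 38.4% before ALDH1A1, against a median of 58% over 35116 windows. The ALDH1A3 window held 6 GC boxes and 38 CpG dinucleotides, and the ALDH1A1 window held 6 CpG dinucleotides. ALDH1B1, ALDH1A3 and ALDH1A1 each had 1 CCAAT match in their whole window. A second RefSeq start of ALDH3A2 had a window of 73.2% GC with 4 GC boxes and 1 CCAAT match, unlike the window shown, at 55.6% GC. Over all windows, searched on both strands, 42.6% held GGGCGG and 32.0% held CCAAT. The members' windows had no match to the TATA box (TATAAA, 10.7% of all windows), to the core of the antioxidant response element (TGACNNNGC, 10.9%) or to the core of the C/EBP-ATF response element (TGATGNAA, 3.14%). These matches describe the letters of the windows and are not evidence of binding.

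In EV cells, 3 genes made up most of the summed level of the 10 members: ALDH9A1 at 21.7 FPKM ± 0.716 (SD, n = 3), ALDH1A3 at 18.6 ± 0.446 and ALDH1B1 at 12.4 ± 0.476. ALDH3A2 followed at 5.65 FPKM ± 0.246, then ALDH16A1 at 2.98 ± 0.0955, ALDH7A1 at 2.53 ± 0.105 and ALDH3B1 at 2.31 ± 0.178. ALDH7A1 and ALDH3B1 overlapped over their EV libraries, and the other neighbours in this order did not. ALDH2 lay at 0.267 FPKM ± 0.0591, and ALDH1A1 and ALDH3A1 were listed at 0 in all 6 libraries. FPKM divides by the length of all annotated exons of a gene, 5772 bases for ALDH1A3 and 3308 for ALDH9A1. This can differ from the length of the transcripts expressed, so the order across genes holds on this scale only. Among the 10 members, the order of the first 2 genes by FPKM was exchanged in LACTB cells. ALDH1A3 was at 26.4 FPKM ± 0.938, above ALDH9A1 at 21.6 ± 0.230, with no overlap between the genes in either group. In reads not divided by exon length, ALDH1A3 was the higher of the pair in both groups. It had 5782 reads in EV and 8134 in LACTB libraries, against 3867 and 3804 for ALDH9A1. ALDH7A1, with 17970 bases of annotated exons, had 2446 reads in EV and 2248 in LACTB libraries. That was more than ALDH1B1, with 3155 bases, which had 2106 and 1766 reads, although ALDH1B1 was far higher by FPKM.

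**Figure D1:**
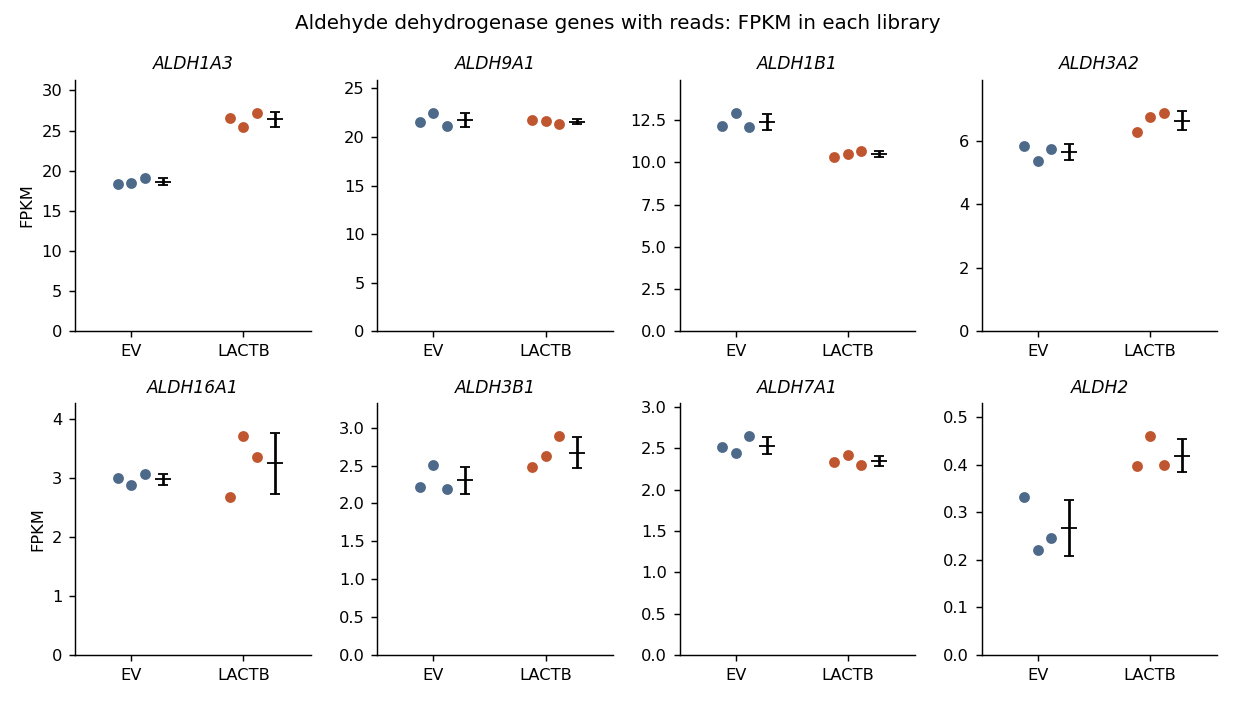
FPKM (vertical axes, each from 0) of the 8 members with reads, in EV and LACTB libraries; each point is 1 library, from left to right replicates 1 to 3, and the bars give the mean ± SD (n = 3). ALDH1A3, ALDH3A2 and ALDH2 were higher in every LACTB library than in any EV library, and ALDH1B1 and ALDH7A1 were lower. ALDH9A1 stayed between 21.1 and 22.5 FPKM in all libraries.

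Of the 10 members, 7 passed the filter of a mean of at least 1 FPKM and were tested with limma on log2(FPKM + 1) together with all 11875 such genes. ALDH1A3 and ALDH3A2 rose, ALDH1B1 fell, and ALDH3B1, ALDH7A1, ALDH9A1 and ALDH16A1 had no call at a Benjamini-Hochberg adjusted p of 0.05. The 3 calls are 42.9% of the tested members, against 32% of all tested genes (14.8% rose and 17.2% fell), so with 7 genes the share called was not set apart from the background. The median log2 fold change of the tested members was 0.09, against -0.01 over all tested genes, and the median size of the change was 0.15, against 0.14.

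The retinal dehydrogenases split between a gene that is high and one without reads. ALDH1A3 (ENSG00000184254, chr15:100877714-100916626, + strand), which oxidises all-trans retinal to retinoic acid, was at 18.30, 18.46 and 19.14 FPKM in the EV libraries and at 26.62, 25.40 and 27.25 FPKM in the LACTB libraries. Every LACTB library was above every EV library, with a gap larger than the spread in either group. The mean was 1.42 times higher in LACTB cells, and the log2 fold change was 0.48 (SE 0.04, 95% confidence interval 0.38 to 0.58, limma adjusted p = 0.000321). Behind these values stood 5782 reads in the EV and 8134 in the LACTB libraries; the coefficient of variation between EV libraries was 2.39%, where counting error alone gives 2.28%, and that between LACTB libraries was 3.55%, where counting alone gives 1.92%. ALDH1A3 ranked 485th of the 11875 tested genes by size of rise. The antisense gene AC015712.2 overlaps 1585 bases (27.5%) of its exons and was at 0.678 to 0.996 FPKM in all libraries; whether counting used strand is not given in the sources used here, so reads of the pair cannot be told apart there. No stretch of 100 bases of ALDH1A3 transcripts occurred in transcripts of another gene.

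ALDH1A1 (ENSG00000165092, chr9:72900662-73080442, - strand), the other retinal dehydrogenase used as a stem-cell mark, was listed at 0 in all 6 libraries. At these depths 3 reads, the limit that a count of 0 allows, correspond to 0.0580 to 0.0612 FPKM per library. Against this limit, and on the length-scaled FPKM, ALDH1A1 was at least 306-fold lower than ALDH1A3 in EV replicate 1 and at least 465-fold lower in LACTB replicate 3, the ends of the range over the 6 libraries.

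Among the mitochondrial acetaldehyde dehydrogenases, ALDH1B1 was the abundant gene and ALDH2 the scarce one. ALDH1B1 (ENSG00000137124, chr9:38392664-38398661, + strand) was at 12.18, 12.96 and 12.10 FPKM in the EV libraries and at 10.33, 10.50 and 10.68 FPKM in the LACTB libraries. The groups did not overlap, and the EV mean was 1.18 times the LACTB mean (12.4 ± 0.476 and 10.5 ± 0.176 FPKM). The log2 fold change was -0.22 (SE 0.04, 95% confidence interval -0.32 to -0.12, limma adjusted p = 0.00873), on 2106 and 1766 reads.

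ALDH2 (ENSG00000111275, chr12:111766887-111817529, + strand), the main acetaldehyde-clearing enzyme of liver, was at 0.33, 0.22 and 0.25 FPKM in the EV libraries and at 0.40, 0.46 and 0.40 FPKM in the LACTB libraries. Its level was low and all LACTB values lay above all EV values, on 139 and 217 reads. The mean of 0.343 FPKM over all libraries was under the filter, so the gene was not tested in the main analysis. With no filter its log2 fold change was 0.17 (limma adjusted p = 0.198), and on TPM, the other alternative that tested it, 0.38 (adjusted p = 0.259), with no call under either. Transcripts of ALDH2 share 5.87% of their stretches of 100 bases with AC002996.1 and F2R.

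ALDH7A1 (ENSG00000164904, chr5:126531200-126595418, - strand), the antiquitin protein that oxidises aminoadipic semialdehyde in lysine breakdown, was at 2.51, 2.44 and 2.65 FPKM in the EV libraries and at 2.33, 2.42 and 2.30 FPKM in the LACTB libraries. The groups did not overlap, with LACTB replicate 2 just under EV replicate 2. The log2 fold change of -0.08 (95% confidence interval -0.21 to 0.06, limma adjusted p = 0.357) did not pass the test, on 2446 and 2248 reads.

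Among the enzymes of fatty and lipid-derived aldehydes, ALDH3A2 rose, ALDH3B1 had no call and ALDH3A1 had no reads. ALDH3A2 (ENSG00000072210, chr17:19648136-19677598, + strand) encodes the fatty aldehyde dehydrogenase of the endoplasmic reticulum, which is deficient in Sjögren-Larsson syndrome. It was at 5.84, 5.37 and 5.73 FPKM in the EV libraries and at 6.29, 6.73 and 6.89 FPKM in the LACTB libraries. The LACTB libraries were all higher, and the mean was 1.18 times that of EV (6.64 ± 0.312 against 5.65 ± 0.246 FPKM). The log2 fold change was 0.20 (SE 0.05, 95% confidence interval 0.08 to 0.32, limma adjusted p = 0.0266), on 1959 and 2283 reads. This call was lost in 6 of 18 alternatives, among them those without EV replicate 2, LACTB replicate 2 or LACTB replicate 3, where the adjusted p reached at most 0.0910; the direction was kept in all 18.

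ALDH3B1 (ENSG00000006534, chr11:68008578-68029282, + strand), which acts on medium- and long-chain aldehydes at membranes, was at 2.21, 2.51 and 2.19 FPKM in the EV libraries and at 2.48, 2.63 and 2.89 FPKM in the LACTB libraries. EV replicate 2 lay above LACTB replicate 1, so the groups overlapped. The log2 fold change was 0.15 (95% confidence interval -0.02 to 0.32, limma adjusted p = 0.159), an interval that still holds the value found for ALDH3A2. ALDH3A1 (ENSG00000108602, chr17:19737984-19748943, - strand), abundant in cornea and active on products of lipid peroxidation, was listed at 0 in all libraries, where 3 reads correspond to 0.0422 to 0.0445 FPKM. Its gene lies 60385 bases from ALDH3A2 on chromosome 17, with 1 coding gene between them. On chromosome 11 the pair ALDH3B1 and ALDH3B2 likewise held 1 gene with reads and 1 listed at 0.

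ALDH9A1 (ENSG00000143149, chr1:165662216-165698863, - strand), which oxidises trimethylaminobutyraldehyde in carnitine synthesis and other aminoaldehydes, was at 21.59, 22.52 and 21.12 FPKM in the EV libraries and at 21.72, 21.70 and 21.31 FPKM in the LACTB libraries. The LACTB values lay inside the EV range. The log2 fold change was -0.01 (95% confidence interval -0.10 to 0.08, limma adjusted p = 0.873), on 3867 and 3804 reads. Of the tested members it had the narrowest interval, and its sign depended on the setting.

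ALDH16A1 (ENSG00000161618, chr19:49453169-49471048, + strand), a divergent member thought to lack catalytic activity in mammals, was at 3.0, 2.87 and 3.06 FPKM in the EV libraries and at 2.68, 3.71 and 3.35 FPKM in the LACTB libraries. LACTB replicate 1 was below, and LACTB replicates 2 and 3 above, every EV library. The log2 fold change was 0.09 (95% confidence interval -0.13 to 0.31, limma adjusted p = 0.520). The spread between LACTB libraries was 16.1%, where counting error alone gives 6.12%. Its exons overlap 152 bases of PIH1D1 on the other strand, a gene at 13.0 to 15.5 FPKM, and the part of those reads in the spread was not tested. On the same strand AC010619.1, listed at 0 in all libraries, overlaps 337 bases (7.26%) of the ALDH16A1 exons. How reads in both genes were counted is not given.

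**Figure D2:**
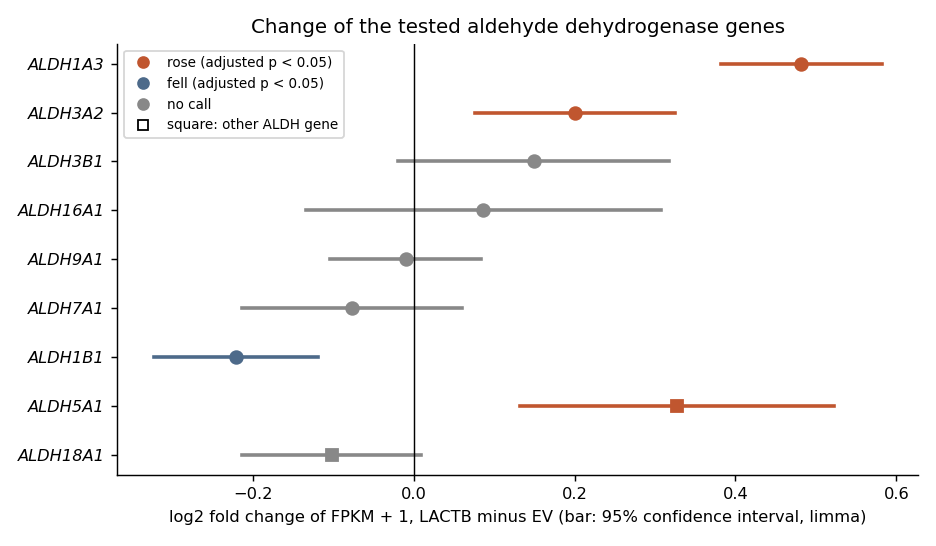
Log2 fold change of FPKM + 1 (horizontal axis, LACTB minus EV) for the 7 tested members (circles) and 2 other tested ALDH genes (squares), with 95% confidence intervals from limma; colour gives the call. ALDH1A3 at 0.48 and ALDH1B1 at -0.22 lie at opposite ends of the members, and the intervals of 4 members and of ALDH18A1 hold 0.

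Summed over the 10 members, the ALDH transcript level was 65.96, 67.35 and 66.23 FPKM in the EV libraries and 72.84, 73.55 and 75.07 FPKM in the LACTB libraries. The sum was higher in every LACTB library (66.5 ± 0.737 against 73.8 ± 1.14 FPKM). Without ALDH1A3 it was 47.9 ± 0.922 in EV and 47.4 ± 1.03 in LACTB libraries, a difference smaller than the spread. The share of ALDH1A3 in the sum was 28% ± 0.783 in EV and 35.8% ± 1.09 in LACTB libraries, that of ALDH9A1 was 32.7% ± 0.780 and 29.2% ± 0.751, and that of ALDH1B1 was 18.7% ± 0.515 and 14.2% ± 0.0490. Shares of 1 sum move against each other and depend on the exon lengths behind FPKM, so these are a description and were not tested. The ratio of ALDH1A3 to ALDH1B1 within a library was 1.5, 1.42 and 1.58 in the EV libraries and 2.58, 2.42 and 2.55 in the LACTB libraries.

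**Figure D3:**
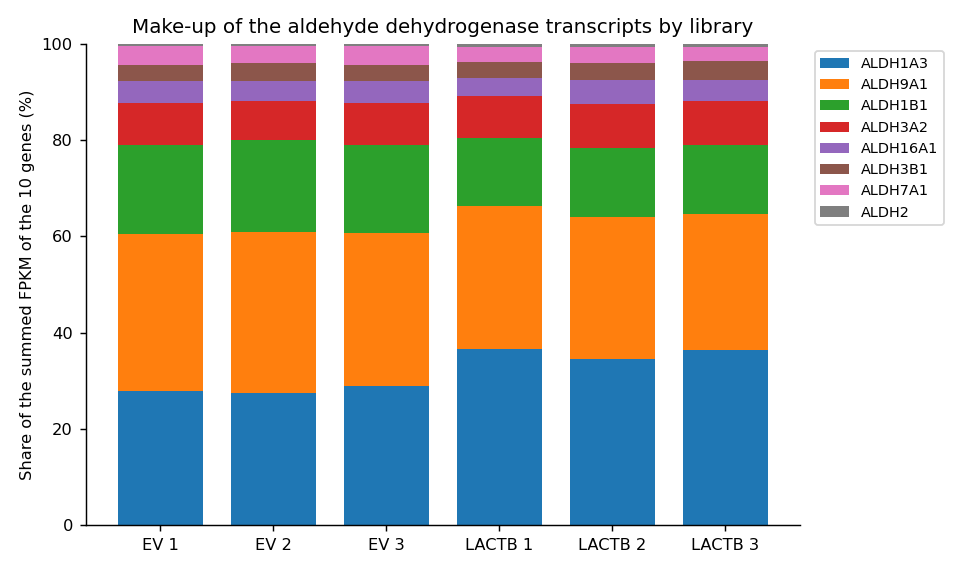
Share of each member in the summed FPKM of the 10 members (vertical axis, percent) in each of the 6 libraries. ALDH1A3 takes 27.4% to 28.9% of the EV bars and 34.5% to 36.5% of the LACTB bars, and ALDH1B1 is narrower in every LACTB bar.

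The human genome holds 9 further ALDH genes, and 2 of them passed the filter. ALDH18A1, which makes the precursor of proline from glutamate, had the highest mean FPKM of all 19 ALDH genes in both groups. It was at 32.77, 35.62 and 34.49 FPKM in the EV libraries and 32.91, 32.10 and 30.63 FPKM in the LACTB libraries. The groups overlapped, and its log2 fold change of -0.10 (95% confidence interval -0.21 to 0.01, limma adjusted p = 0.147) did not pass. ALDH5A1, the succinic semialdehyde dehydrogenase of GABA breakdown, was at 1.12, 1.05 and 0.94 FPKM in the EV libraries and at 1.71, 1.55 and 1.42 FPKM in the LACTB libraries. ALDH5A1 rose 1.5-fold (log2 fold change 0.33, SE 0.08, limma adjusted p = 0.0227), but it was near the filter, and the call was lost in 5 of 17 alternatives, among them those without EV replicate 2, EV replicate 3, LACTB replicate 1 or LACTB replicate 2 (adjusted p up to 0.0769). The other 7 were not tested: ALDH4A1, of proline breakdown, had means of 0.485 and 0.535 FPKM in EV and LACTB cells, and ALDH6A1, of valine breakdown, had 0.368 and 0.517. The gene AL080251.1 overlaps 1517 bases (41.1%) of the exons of ALDH4A1 on the same strand. The sources used here do not give how reads in both genes were counted, so the low level of ALDH4A1 is uncertain. ALDH8A1 had 0.0780 and 0.124 FPKM, and the folate enzyme ALDH1L2 had 24 reads in the EV and 6 in the LACTB libraries. The third retinal dehydrogenase, ALDH1A2, had 9 reads in the EV and 20 in the LACTB libraries, ALDH1L1 had 1 read in all, and ALDH3B2 was listed at 0.

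The genes around the retinal dehydrogenases did not move one way. In a list of 28 retinoid pathway genes (retinol and retinal enzymes, binding proteins, receptors), 13 were tested, 1 rose and 2 fell, 23.1% against the background of 32%, with a median log2 fold change of -0.01. RDH11, a reductase that acts between retinal and retinol, was at 20.4, 20.9 and 22.5 FPKM in the EV libraries and at 13.0, 12.4 and 12.5 FPKM in the LACTB libraries (log2 fold change -0.71, SE 0.05, limma adjusted p = 0.000111). RDH14, a retinol dehydrogenase, fell from a mean of 10.8 to 8.44 FPKM (adjusted p = 0.0363), and the receptor gene RARG rose from 5.94 to 7.54 FPKM (adjusted p = 0.0270). Those 2 calls were lost in 7 and 6 of 18 alternatives, which for both genes include no filter, the replicate block, and leaving out EV replicate 1, EV replicate 3, LACTB replicate 2 or LACTB replicate 3, and for RDH14 also TPM (adjusted p up to 0.133 and 0.0924). Of 16 genes known to respond to retinoic acid, 7 of which are also in the retinoid list, 7 were tested. TGM2, the transglutaminase induced by retinoic acid in many cells, fell from 229.5 to 185.7 FPKM (adjusted p = 0.00857), and the other 6 tested had no call (14.3% called against 32% of all tested genes, median log2 fold change 0.10). Without EV replicate 2, 2 of these targets fell.

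Around the acetaldehyde enzymes, 11 of 24 genes of alcohol and aldehyde metabolism were tested; 2 rose and 5 fell (63.6% called against 32% of all tested genes, median log2 fold change -0.22). AOX1, an aldehyde oxidase, was at 40.9, 43.0 and 44.4 FPKM in the EV libraries and fell to 31.3, 30.2 and 28.3 FPKM in the LACTB libraries (limma adjusted p = 0.000646). AKR7A2, an aldehyde reductase, fell from 22.5 to 16.3 FPKM (adjusted p = 0.00242). AKR1B1, the aldose reductase that turns aldehydes into alcohols, rose from 9.45 to 15.1 FPKM (adjusted p = 0.000567), and the amine oxidase gene AOC2 rose from 1.97 to 3.91 FPKM (adjusted p = 0.000536).

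In the list on fatty aldehydes and ether lipids, which surrounds ALDH3A2, 13 of 20 genes were tested, 2 rose and 4 fell (46.2% called against 32% of all tested genes, median log2 fold change -0.13); TMEM189 is the older name of PEDS1, under which the deposited files list it. SGPL1, the lyase that releases a fatty aldehyde from sphingosine phosphate and so feeds ALDH3A2, rose from 8.28 to 9.75 FPKM (limma adjusted p = 0.0154), a call lost without LACTB replicate 2 (adjusted p = 0.0622). PHYH, the phytanoyl-CoA hydroxylase of peroxisomes, rose from 3.43 to 5.03 FPKM (adjusted p = 0.00108). SPHK1, the kinase that makes sphingosine phosphate, fell from 36.7 to 26.6 FPKM (adjusted p = 0.00272), and AGPS, of ether lipid synthesis, fell from 17.3 to 14.3 FPKM (adjusted p = 0.00499). Without LACTB replicate 2 the list held 1 rise and 2 falls, and without LACTB replicate 3 it held 2 falls.

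Around ALDH7A1 and ALDH9A1, 12 of 21 genes of lysine, choline and polyamine catabolism were tested; 4 rose and 3 fell (58.3% called against 32% of all tested genes, median log2 fold change 0.06). The folate-linked serine enzymes moved apart: mitochondrial SHMT2 was at 46.3, 45.3 and 44.0 FPKM in the EV libraries and 68.2, 68.0 and 69.0 FPKM in the LACTB libraries (limma adjusted p = 7.27e-05), while cytosolic SHMT1 fell from 26.0 to 16.7 FPKM (adjusted p = 0.000113). SMOX, the spermine oxidase, rose from 4.10 to 6.62 FPKM (adjusted p = 0.000861), and the choline transporter gene SLC44A1 fell from 9.20 to 6.92 FPKM (adjusted p = 0.00190).

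NRF2 is a transcription factor of the oxidative stress response, and ALDH3A1 is among the genes it is known to induce in some cells. Of 30 NRF2 target genes in a list that holds no ALDH gene, 27 were tested and 22 rose (81.5%, where 14.8% of all tested genes rose, median log2 fold change 0.49). The cystine transporter gene SLC7A11 was at 7.70, 8.68 and 9.04 FPKM in the EV libraries and at 50.2, 47.8 and 46.1 FPKM in the LACTB libraries (limma adjusted p = 2.93e-06). AKR1C1, also counted among the 22, is an aldo-keto reductase with near-identical relatives whose reads may be split between them. It was at 0.439 FPKM in EV and 6.48 FPKM in LACTB cells, so it passed the filter only through the group where it is high, and its call is no support for the list. ALDH3A1 was listed at 0 in these same libraries. The lists were chosen with earlier results of these samples known, so their directions are not independent evidence.

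**Figure D4:**
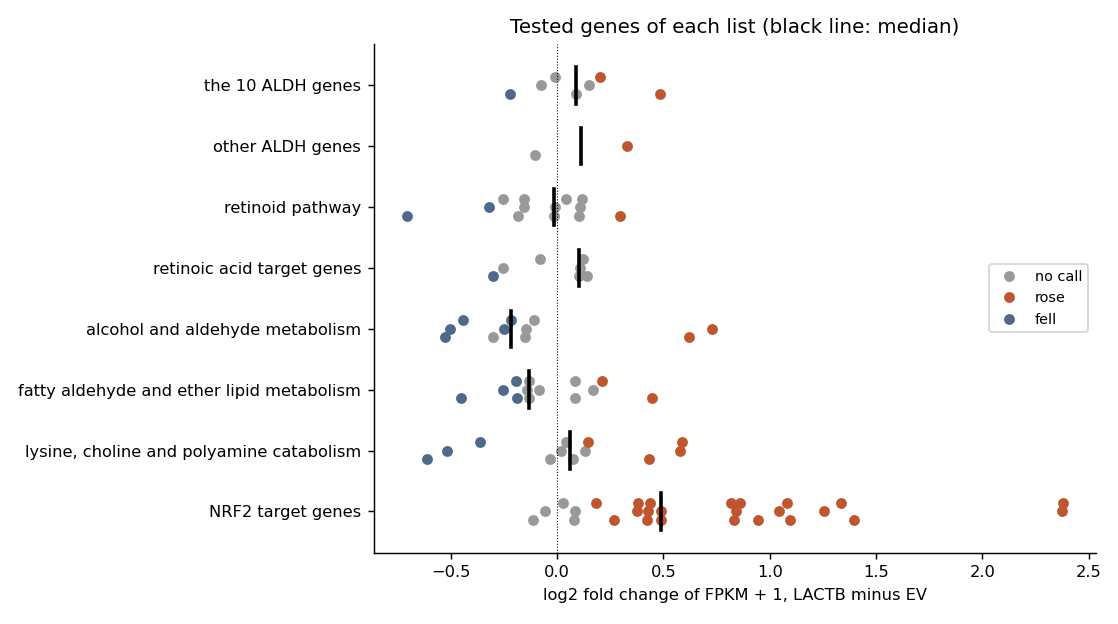
Log2 fold change of FPKM + 1 (horizontal axis, LACTB minus EV) of every tested gene in the 10 members, the other ALDH genes and 6 pathway lists; each point is 1 gene, coloured by its call, and the black line is the list's median. The members spread from -0.22 to 0.48 on both sides of 0, while 22 of 27 NRF2 targets lie to the right as rises.

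The genes with a pattern most like ALDH1A3 were found by the root mean square difference of the 6 values of log2(FPKM + 1), centred on the EV mean, among 10113 tested protein-coding genes. They were PGGHG, a hydrolase of a collagen disaccharide (difference 0.0174; 1.23 FPKM in EV and 2.08 in LACTB cells), F3, which encodes tissue factor (0.0324; 44.0 and 61.1 FPKM), and KDM6B, a histone demethylase gene (0.0331; 2.34 and 3.77 FPKM). The nearest to ALDH1B1 were TET2, a DNA demethylation enzyme gene (0.0179; 2.09 and 1.65 FPKM), BTBD7 (0.0190; 6.18 and 5.18 FPKM) and SLC6A6, the taurine transporter gene (0.0195; 26.7 and 22.8 FPKM). With 10113 genes to choose from, close patterns over 6 libraries are a description and carry no test.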

How the data were processed

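The submitters' processing notes name GRCh38 (hg38), featureCounts 1.5.0-p3, HISAT2 2.0.5 and DESeq2 1.16.1 without their roles; the sources used here do not name trimming, strand use, the annotation release or the handling of multiply matching reads. The authors deposited 1 file per library of FPKM values for 58735 genes, already divided by library size and exon length. All gene IDs matched GENCODE 29, and 58708 symbols were equal; coordinates and exon lengths come from it. FPKM times exon length gave whole reads for 100% of the values (tolerance 0.1 reads), from which depth was recovered. Intervals and limits from reads cover counting error only. Within a group, a chi-square test of these reads between libraries gave 2.02 to 12.4 per degree of freedom, more than counting noise gives. Pairs with EV replicate 3 gave 12.0 and 12.4, the other EV pair 3.07 and the LACTB pairs 2.02 to 4.87. Each library was counted once, and this spread does not show separate cultures.

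From the deposited FPKM values, log2(FPKM + 1) was computed and tested with limma 3.58.1 (lmFit, eBayes with a variance trend, R 4.3.3), after a filter at a mean of 1 FPKM, with Benjamini-Hochberg adjustment over all 11875 and calls at 0.05. Fold changes on this log2 scale understate those of low genes; changes given as a number of times are ratios of mean FPKM. Counts of calls by direction and medians describe the lists, with no test. The share of all genes whose groups did not overlap was not counted, so non-overlap of a member is a description. The fit was tested on simulated data first. The 18 alternatives were a smaller pseudocount, 2 other filters, TPM, median-of-ratios and quantile scaling, 3 other variance or weight settings, a replicate block, protein-coding genes only, voom on recovered reads with trimmed-mean scaling and each library left out.

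The text names all 10 members, the 9 other ALDH genes, up to 2 rises and 2 falls with the smallest p per pathway list, the 3 nearest patterns of the members with the largest rise and fall, and LACTB. The members and lists were chosen with earlier results of these data known. Promoter windows are from RefSeq (GRCh38.p14).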

Additional observations from a re-analysis of the deposited data

How the results depend on the processing

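ALDH1A3 and ALDH1B1 kept direction and call in all 18 alternatives (log2 fold change 0.46 to 0.52 with adjusted p up to 0.00483, and -0.24 to -0.19 with adjusted p up to 0.0434). Over the 7 tested members, 113 alternative values kept direction and side of the threshold, 6 lost the call (all ALDH3A2) and 4 changed sign. The sign changes were all of ALDH9A1, to 0.0133 with TPM, 0.0185 with quantile normalization, 0.00625 with voom and 0.0145 without EV replicate 2 (range -0.0300 to 0.0145 over the libraries left out). The members that rose therefore numbered 1 in place of 2 with no filter, with TPM and with the replicate block, and 1 to 2 when single libraries were left out.

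The replicate numbers did not pair the libraries: the correlations of the deviations of same-numbered libraries were -0.13, 0.02 and -0.04. With the replicate block, 1155 genes rose and 1324 fell, 1 member and 0 retinoid pathway genes rose (1 at an unadjusted limma p under 0.05), 1 retinoid pathway gene fell and 2 genes of the fatty aldehyde list fell; the cause was not tested. Over all genes, 1155 rose at a mean of at least 5 FPKM, where fewer genes were tested (6980), and 1295 fell with TPM, where more were tested (16070). The filter and the pseudocount of 1 were kept on the TPM scale, so TPM changed more than the scaling. When single libraries were left out, 1115 to 1505 rose and 1388 to 1800 fell, the lowest count of each without LACTB replicate 2. No scaling moved the median log2 fold change of the genes tested by more than 0.1. It ran from -0.01 to 0.01 over TPM, median-of-ratios, quantile and voom. The lowest median over all settings, -0.02, came with the filter at a mean of at least 5 FPKM.

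Of the other ALDH genes, 0 rose with no filter (1 at an unadjusted limma p under 0.05), 0 at a mean of at least 5 FPKM, where ALDH5A1 was not tested, and 0 to 1 with single libraries left out. Of the retinoid pathway genes, 0 rose with no filter (1 at an unadjusted p under 0.05) and 0 to 1 with single libraries left out; 1 fell with no filter and with TPM, and 1 to 3 with single libraries left out. Retinoic acid targets that fell numbered 2 with protein-coding genes only and 1 to 2 with single libraries left out. In alcohol and aldehyde metabolism 1 rose at a mean of at least 5 FPKM and 3 fell with TPM. In the fatty aldehyde list 1 rose at a mean of at least 5 FPKM and 4 with TPM, 2 fell with TPM, and with single libraries left out 1 to 3 rose and 2 to 4 fell. The cause of these shifts was not tested, except where fewer genes were tested. Depth and the filter on length-scaled FPKM limit what can be said of ALDH2, with 39 to 77 reads per library over 9720 bases of annotated exons. Depth also limits what can be said of ALDH1A1 and ALDH3A1, listed at 0.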
